A study of Mus musculus with 31 samples.

Results

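Fibroblast growth factor (FGF) signalling genes were examined in mouse pancreas at postnatal day 2. The set comprised every gene whose symbol is that of a numbered FGF ligand, of an FGF receptor (Fgfr1 to Fgfr4 and Fgfrl1) or of a Sprouty or Spred feedback inhibitor. It held 34 of the 38283 genes in the deposited tables, namely 22 ligand, 5 receptor and 7 feedback genes. C57BL/6 pancreata had been dissociated and sorted by flow cytometry on the YFP label, the positive fraction being mesenchymal and the negative fraction the rest, and amplified RNA from each fraction had been sequenced. In the Igf2 deletion model, mutants were Igf2+/fl; Nkx3.2Cre/+ and controls Igf2+/+; Nkx3.2Cre/+. In the H19DMD model, which the series describes as Igf2 overexpression, mutants were H19DMDfl/+; Nkx3.2+/Cre and controls H19DMD+/+; Nkx3.2+/Cre. All groups, controls included, carried the Nkx3.2-Cre allele, which is active in pancreatic mesenchyme, so the targeted deletion was mesenchymal and the non-mesenchymal cells were not themselves the target.

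Values were analysed for 21 of the 31 samples. In the H19DMD model each fraction had 3 control and 4 mutant libraries, and the Igf2 model had 4 control and 3 mutant non-mesenchymal libraries. The other 10 samples, among them the mesenchymal cells of the Igf2 model, were not analysed here. Levels are in FPKM (mapped fragments scaled for transcript length and library size), which lets genes be compared. Differences are between means of log2(FPKM + 1), which understates the change of genes with low values. The read totals are unknown from these tables, but the smallest steps between values put 1 read in a transcript of 2000 nt at 0.0991 to 0.205 FPKM in the H19DMD table and at 0.0634 to 0.159 FPKM in the Igf2 table. Summed over 9 mesenchymal markers, levels were 4309 to 5083 FPKM in the H19DMD control mesenchymal libraries and 23.9 to 74.6 FPKM in the non-mesenchymal ones, and summed over 6 epithelial markers they were 5.83 to 14.8 and 373 to 586 FPKM. Of these 6 epithelial markers, 4 had a mean under 1 FPKM in control mesenchymal cells, while 8 acinar markers still summed to 589 to 1318 FPKM there, against 36568 to 99015 FPKM in non-mesenchymal cells. The non-mesenchymal fraction is therefore called by its gate: besides acinar, ductal and endocrine markers it held leukocyte markers at 188 to 345 FPKM against 15.2 to 29.9 FPKM in mesenchymal cells. Endothelial markers went the other way, at 82.7 to 93.0 FPKM in mesenchymal and 16.8 to 41.5 FPKM in non-mesenchymal control libraries. Mesothelial markers (120 to 264 against 1.67 to 7.91 FPKM) and pericyte and smooth muscle markers (432 to 716 against 8.94 to 15.6 FPKM) were also higher in the mesenchymal fraction, and their part in the differences below was not tested. The labels do not say that the replicates came from separate animals, so p-values measure the spread between these samples only.

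FGFs are secreted proteins that bind heparan sulphate and activate receptor tyrosine kinases at the cell surface. Active receptors signal through FRS2, RAS and ERK, and ERK in turn induces Sprouty and Spred genes, whose products damp the same cascade. In the developing pancreas, Fgf10 from the mesenchyme acts on an Fgfr2 splice form of the epithelium and keeps epithelial progenitors dividing. Fgf7, a close relative, binds the same receptor form. Intracellular FGF homologous factors (Fgf11 to Fgf14) are not secreted and bind voltage-gated sodium channels.

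Promoter sequence was available in the RefSeq table (build GRCm38.p6) for 25 of the 34 genes. Sequences are shown for the 5 genes that differed the same way between the fractions in controls and in mutants and whose 250 bases before the RefSeq start overlap no annotated GENCODE M21 exon and adjoin an annotated transcript start. They are shown as 3 genes higher and 2 lower in mesenchymal cells. Each runs 5′ to 3′ on the gene's strand, and capitals mark the GC box GGGCGG or its reverse complement CCGCCC, searched on both strands. The windows are chr2:126034408-126034657 (plus strand) for Fgf7, chr13:118714449-118714698 (plus) for Fgf10, chr11:33147401-33147650 (minus) for Fgf18, chr16:28564952-28565201 (minus) for 1 start of Fgf12, and chr5:108693979-108694228 (plus) for Fgfrl1.
Fgf7: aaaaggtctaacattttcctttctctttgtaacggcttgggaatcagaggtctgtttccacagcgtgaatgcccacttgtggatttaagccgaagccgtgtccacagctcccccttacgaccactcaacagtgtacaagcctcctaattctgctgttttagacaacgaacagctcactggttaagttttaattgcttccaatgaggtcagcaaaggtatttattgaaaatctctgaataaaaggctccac
Fgf10: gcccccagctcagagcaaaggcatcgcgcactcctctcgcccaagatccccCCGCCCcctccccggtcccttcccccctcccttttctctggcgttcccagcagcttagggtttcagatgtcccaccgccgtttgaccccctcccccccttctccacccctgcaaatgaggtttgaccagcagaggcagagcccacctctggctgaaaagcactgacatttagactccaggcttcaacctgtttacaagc
Fgf18: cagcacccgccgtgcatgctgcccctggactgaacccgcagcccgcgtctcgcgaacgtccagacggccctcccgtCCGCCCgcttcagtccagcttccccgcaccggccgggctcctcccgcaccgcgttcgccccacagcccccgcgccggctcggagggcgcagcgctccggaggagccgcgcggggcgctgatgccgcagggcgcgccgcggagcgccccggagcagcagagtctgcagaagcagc
Fgf12: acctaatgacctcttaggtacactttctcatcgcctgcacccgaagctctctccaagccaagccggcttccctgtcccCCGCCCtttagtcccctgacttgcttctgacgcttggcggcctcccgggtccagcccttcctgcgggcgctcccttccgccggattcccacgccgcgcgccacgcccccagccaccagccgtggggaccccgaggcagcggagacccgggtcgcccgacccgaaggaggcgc
Fgfrl1: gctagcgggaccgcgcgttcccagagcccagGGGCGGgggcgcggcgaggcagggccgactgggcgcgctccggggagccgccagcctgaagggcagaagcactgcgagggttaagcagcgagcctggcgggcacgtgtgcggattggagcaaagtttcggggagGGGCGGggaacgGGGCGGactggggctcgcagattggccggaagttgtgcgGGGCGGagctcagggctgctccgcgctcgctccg
Of the 3 ligands that were higher in mesenchymal cells, the Fgf7 window had 6 CpG dinucleotides, a GC content of 43.6% and no GC box. The Fgf10 window had 8 CpG, 61.2% GC and 1 GC box, and the Fgf18 window had 37 CpG, 77.2% GC and 1 GC box. Among the genes higher in non-mesenchymal cells, Fgf12 had 24 CpG and 1 GC box, and Fgfrl1 had 30 CpG and 4 GC boxes. Over the 32851 promoters of the table the median was 6 CpG and 52.4% GC, and 32.7% held a GC box. The GC boxes are letter matches, not binding sites, and nothing about a factor follows from them.

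Secreted ligands of mesenchymal cells were led by Fgf18, Fgf1, Fgf2, Fgf7 and Fgf10. The summed level of the 18 secreted ligand genes was 88.9 to 128 FPKM in the H19DMD control mesenchymal libraries and 15.6 to 22.4 FPKM in the non-mesenchymal ones. Fgf18 made up 33.7 ± 10.3% (SD, n = 3) of that sum in control mesenchymal cells, Fgf1 22.0 ± 2.73%, Fgf7 14.6 ± 2.02% and Fgf2 14.2 ± 9.39%. In mutant mesenchymal cells Fgf18 made up 31.5 ± 4.70% (SD, n = 4), Fgf2 24.6 ± 8.35%, Fgf1 17.3 ± 3.33% and Fgf7 12.1 ± 4.96%. Fgf18 did not lead in each library: Fgf1 was higher in control library 1 (32.2 against 31.2 FPKM) and Fgf2 in mutant library 4 (39.7 against 31.2 FPKM). In control library 3 the Fgf2 share was 3.36%, the lowest. In control non-mesenchymal cells Fgf1 made up 55.9 ± 8.57% and Fgf9 26.8 ± 5.50%. The ligand repertoire of the non-mesenchymal fraction thus rested on Fgf1 and Fgf9, and its sum was lower in each control library.

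Between the fractions of H19DMD control pancreas, 21 of the 34 genes had a mean of 1 FPKM or more over the libraries, the filter used, and 12 passed an adjusted p of 0.05 (limma, Benjamini-Hochberg over all 16732 genes tested). Of these, 7 were higher in mesenchymal cells, where 12.4% of all genes tested were called higher, and 5 were lower, where 10.3% were called lower. In H19DMD mutant pancreas 8 were higher and 5 lower, beside 13.5% and 15.1% of 16767 genes. The groups did not overlap for 15 of the 21 genes in controls and 13 of 21 in mutants, while 39.9% and 31.0% of all genes tested did not. The controls and mutants are separate libraries, and 6 genes were higher and 5 lower in both. The share of all genes called the same way in both was not counted, so no background stands beside these genes. A filter on the mean admits genes that are high in 1 fraction only, so these counts describe the tested genes and not the whole set. In sorted bulk RNA, a lower level cannot be told apart from fewer cells of the type that makes the transcript.

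Fgf10 (ENSMUSG00000021732, chr13:118669791-118792115, GRCm38), the mesenchymal ligand of pancreatic progenitors, was at 10.8, 11.4 and 6.38 FPKM in the 3 control mesenchymal libraries and at 7.45, 8.12, 14.1 and 8.46 FPKM in the 4 mutant ones. Its highest value in any of the 14 non-mesenchymal libraries was 0.164 FPKM, and 5 of them were listed at 0. The H19DMD non-mesenchymal values of Fgf10 were 0.0482, 0.0528 and 0 FPKM in controls and 0.0434, 0.0936, 0.164 and 0 FPKM in mutants. Every mesenchymal library was above every non-mesenchymal one. The difference on the log2(FPKM + 1) scale was 3.31 (SE 0.29, adjusted p = 0.000735) in controls and 3.25 (SE 0.24, adjusted p = 2.9e-05) in mutants. Of its exonic bases, 2.67% overlap an antisense gene, Gm16263, and the use of strand in counting is not given in the sources used here.

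Fgf7 (chr2:126034658-126091185), the keratinocyte growth factor, was at 17.6, 15.3 and 15.1 FPKM in control mesenchymal libraries and at 11.2, 8.38, 18.2 and 16.1 FPKM in mutant ones. It was listed at 0 in all 3 H19DMD control non-mesenchymal libraries and at 0.514, 0, 0 and 0.381 FPKM in the mutant ones. The groups did not overlap, and the difference was 4.08 (SE 0.20, adjusted p = 0.000122) in controls and 3.53 (SE 0.29, adjusted p = 5.0e-05) in mutants. In the Igf2 table, 1 control non-mesenchymal library held 1.49 FPKM of Fgf7 and no other exceeded 0.618 FPKM. The remaining genes of its subfamily, Fgf3 and Fgf22, stayed under 1 FPKM in every group mean.

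Fgf18 (chr11:33117430-33147400), a ligand of the FGF8 subfamily known from lung and skeletal mesenchyme, was at 31.2, 37.0 and 39.8 FPKM in control mesenchymal libraries. The mutant mesenchymal libraries held 40.0, 42.6, 29.2 and 31.2 FPKM. Non-mesenchymal libraries of the H19DMD model were at 1.47, 0.506 and 0 FPKM in controls and 0.553, 0, 0 and 1.16 FPKM in mutants. Fgf18 had the largest difference of the set in controls, 4.57 (SE 0.36, adjusted p = 0.000528), and it was 4.75 (SE 0.29, adjusted p = 1.2e-05) in mutants, where that of Fgf2 was 4.79. The rank in controls depended on the processing, as under the alternatives the difference reached 7.33 for Fgf7 and at most 6.30 for Fgf18. Its subfamily members Fgf8 and Fgf17 were, respectively, listed at 0 in all 21 libraries and under 1 FPKM in every group mean.

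Fgf2, basic FGF, was uneven among the mesenchymal controls, at 26.0, 21.7 and 2.99 FPKM. The 4 mutant mesenchymal libraries were at 22.8, 36.4, 15.02 and 39.7 FPKM. In non-mesenchymal cells the 3 controls were at 0, 1.79 and 4.34 FPKM, and all 4 mutants were listed at 0. Mesenchymal control library 3 lay below non-mesenchymal control library 3, so the fractions overlapped in controls, and the difference of 2.45 (SE 0.94) did not pass the test (adjusted p = 0.124). Without that mesenchymal library it was 3.33 (adjusted p = 0.0417), and 1 fit over the table gave an adjusted p of 0.0213. In mutants Fgf2 was higher in mesenchymal cells by 4.79 (SE 0.31, adjusted p = 1.4e-05). Exons of Fgf2 share 640 nt, 9.44% of its exonic bases, with the antisense coding gene Nudt6, so its level is uncertain.

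Fgf1, acidic FGF, which binds all FGF receptors, was found in both fractions. It was at 32.2, 23.6 and 18.1 FPKM in control mesenchymal and at 10.02, 10.6 and 10.6 FPKM in control non-mesenchymal libraries. The mutant libraries held 25.3, 17.4, 14.8 and 21.6 FPKM in mesenchymal and 4.70, 16.5, 10.4 and 13.1 FPKM in non-mesenchymal cells. Fgf1 was 2.37-fold higher in mesenchymal cells of controls (log2 difference 1.13, SE 0.24, adjusted p = 0.0198). In mutants the groups overlapped and the difference of 0.86 (SE 0.35) did not pass (adjusted p = 0.111). The control call was lost (adjusted p 0.0579 to 0.0625) without mesenchymal library 2 or without any 1 of the 3 non-mesenchymal libraries. It was also lost with a replicate block.

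Fgf9, a ligand made by epithelium and mesothelium in other organs, did not separate the fractions. Mesenchymal libraries were at 7.44, 3.93 and 2.92 FPKM in controls and 5.92, 1.84, 6.26 and 1.28 FPKM in mutants. Non-mesenchymal libraries were at 3.48, 4.74 and 7.37 FPKM in controls and 2.69, 8.05, 13.8 and 5.46 FPKM in mutants. The difference was -0.13 (SE 0.38, adjusted p = 0.845) in controls and -0.82 (SE 0.54, adjusted p = 0.301) in mutants. In the Igf2 table Fgf9 was at 4.79, 7.59, 7.40 and 4.19 FPKM in controls and at 5.04, 23.0 and 7.83 FPKM in mutants, so that 1 mutant library held the highest Fgf9 value of the 21 libraries. Fgf16, of the same subfamily, had group means between 0.249 and 1.86 FPKM and was highest in control mesenchymal cells (2.08, 1.69 and 1.82 FPKM). Its fraction difference of 1.24 (SE 0.36) in controls did not pass (adjusted p = 0.0558), but passed with no filter on low values, with 1 fit over the table or without non-mesenchymal library 2 (adjusted p 0.0293 to 0.0481).

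Of the intracellular FGF homologous factors, Fgf11 and Fgf12 took opposite sides. Fgf12 was at 4.001, 6.46 and 5.30 FPKM in control and 5.001, 5.66, 7.96 and 4.63 FPKM in mutant non-mesenchymal libraries, against 0.341, 0.102 and 0.0783 FPKM in control and 0.203, 0, 0 and 0.334 FPKM in mutant mesenchymal libraries. Its difference was -2.40 (SE 0.28, adjusted p = 0.00206) in controls and -2.57 (SE 0.25, adjusted p = 0.000119) in mutants. Fgf11 was at 6.37, 7.07 and 5.10 FPKM in control mesenchymal and 3.12, 2.35 and 1.83 FPKM in control non-mesenchymal libraries. Its mutant libraries were at 7.69, 7.95, 3.76 and 8.33 FPKM and at 3.31, 3.42, 3.60 and 2.25 FPKM. Fgf11 was higher in mesenchymal cells by 1.07 (SE 0.24, adjusted p = 0.0244) in controls and 0.90 (SE 0.26, adjusted p = 0.0346) in mutants. The call depended on single libraries. In controls it was lost without mesenchymal library 1 or 2 or non-mesenchymal library 2 or 3, and in mutants with a filter of 5 FPKM, with none, and without any 1 library other than mesenchymal library 3. A replicate block also ended the call in both genotypes.

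Fgf13 varied widely between libraries of 1 group. In control non-mesenchymal cells it was at 3.32, 39.6 and 6.01 FPKM, and in mutant ones at 6.94, 12.95, 0.445 and 0.112 FPKM. Control mesenchymal libraries held 0.529, 4.15 and 1.28 FPKM, and mutant ones 1.72, 0.1796, 0.292 and 0.817 FPKM. In the Igf2 table the 4 controls were at 9.33, 0, 20.0 and 7.53 FPKM and the 3 mutants at 19.4, 3.34 and 7.72 FPKM. The fraction difference did not pass in controls (-2.03, SE 0.92, adjusted p = 0.1805) or in mutants (-1.14, SE 0.84, adjusted p = 0.360). With a replicate block it passed in controls (adjusted p = 0.0476). The summed neural and glial markers were 12.1 to 26.3 FPKM in control non-mesenchymal and 5.43 to 7.42 FPKM in control mesenchymal libraries, and their part in the spread of Fgf13 was not tested. Fgf14 had group means from 0.0639 to 1.23 FPKM.

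**Figure D1:**
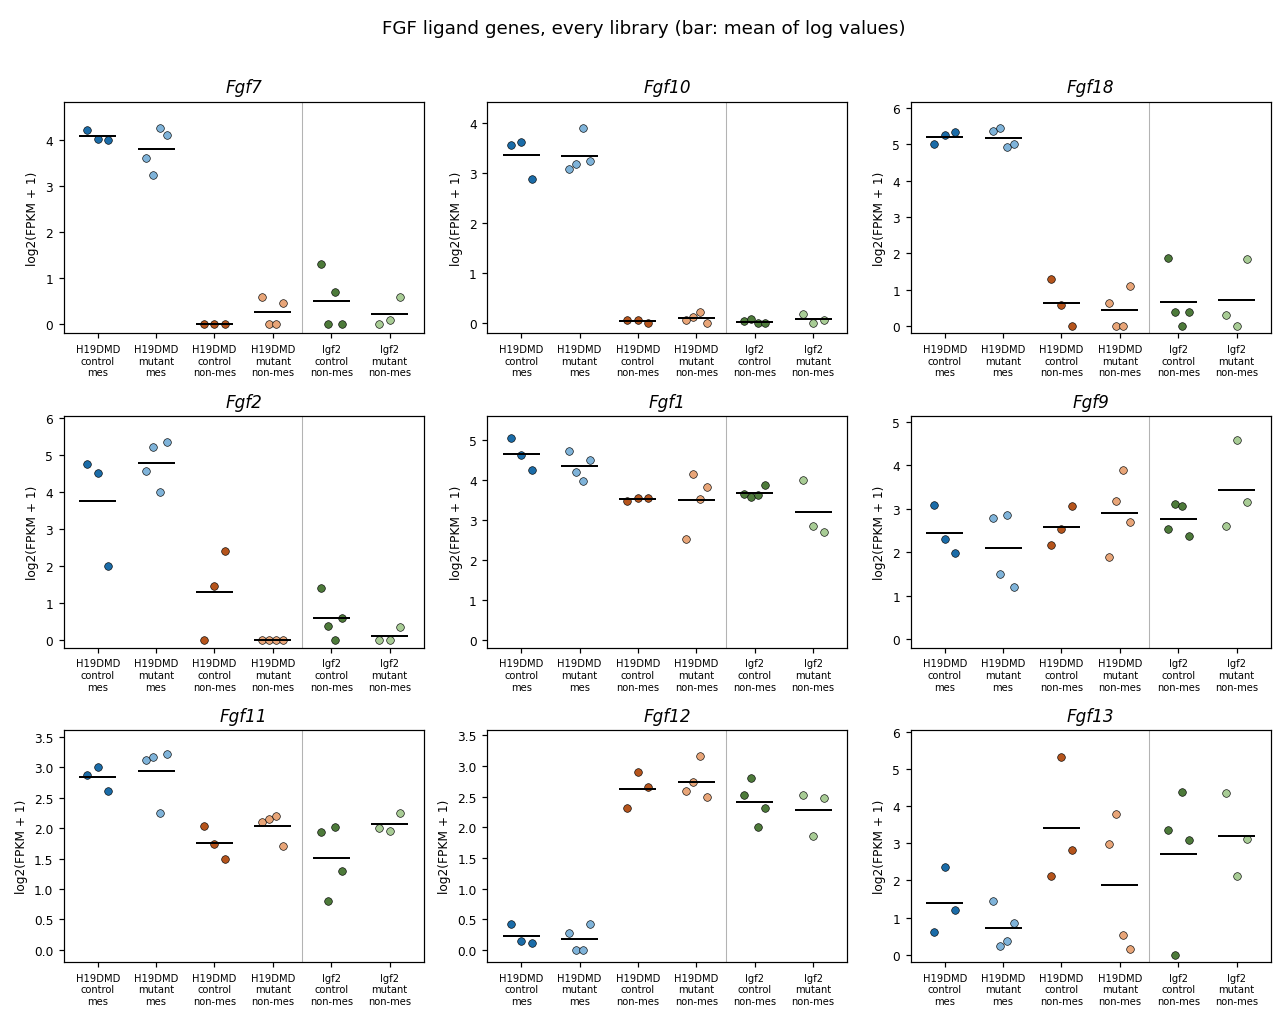
Levels of the 9 ligand genes whose mean reached 5 FPKM in a group, as log2(FPKM + 1) on the vertical axis, with 1 point per library and a bar at the mean of each of the 6 groups (mes, mesenchymal; non-mes, non-mesenchymal; the grey line separates the 2 tables). Fgf10 is near 0 in all non-mesenchymal groups, where Fgf7 and Fgf18 reach 1.49 and 2.698 FPKM, and Fgf12 is near 0 in both mesenchymal groups.

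The non-mesenchymal cells of the Igf2 model, deposited in the other table, held at most 2.698 FPKM of Fgf7, Fgf10 or Fgf18. Fgf7 was at 1.49, 0, 0.618 and 0 FPKM in controls and 0, 0.0595 and 0.499 FPKM in mutants. Levels of Fgf10 were 0.03299, 0.05703, 0 and 0 FPKM in controls and 0.144, 0 and 0.04502 FPKM in mutants. For Fgf18 they were 2.698, 0.3198, 0 and 0.315 FPKM in controls and 0.233, 0 and 2.57 FPKM in mutants. Each of these ligands was thus below every mesenchymal library of the H19DMD table, a comparison across tables that was not tested. Fgf2 was at 1.67, 0.306, 0 and 0.5202 FPKM in controls and 0, 0 and 0.272 FPKM in mutants. Fgf1 held 11.5, 10.9, 11.4 and 13.6 FPKM in controls and 14.9, 6.21 and 5.51 FPKM in mutants. Fgf1 was thus above 5 FPKM in all 7 of these libraries, while Fgf2 was listed at 0 in 3 of them. Of the intracellular factors, Fgf11 was at 2.81, 0.745, 3.03 and 1.44 FPKM in controls and 3.02, 2.87 and 3.74 FPKM in mutants. Levels of Fgf12 were 4.77, 5.99, 3.03 and 3.98 FPKM in controls and 4.76, 2.64 and 4.55 FPKM in mutants. Fgf12 was above 1 FPKM in all of these libraries.

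The remaining 11 ligand genes had a mean under 1 FPKM in every group. Fgf4, Fgf6, Fgf8 and Fgf20 were listed at 0 in all 21 libraries. Fgf3 and Fgf15 were above 0 in 1 library each, Fgf21 and Fgf22 in 2, Fgf23 in 6, Fgf17 in 10 and Fgf5 in 15. The highest group mean among these genes was 0.673 FPKM, for Fgf5 in mutant mesenchymal cells. The endocrine FGFs (Fgf15, Fgf21 and Fgf23), which act through Klotho coreceptors, were thus listed at 0 in most libraries.

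All 5 receptor genes differed between the fractions in both genotypes, although the calls of Fgfrl1 were lost under some alternatives. Of all genes tested, 12.4% were called higher and 10.3% lower in mesenchymal cells of controls, and 13.5% and 15.1% in those of mutants. Fgfr1 was higher in mesenchymal cells and Fgfr2, Fgfr3, Fgfr4 and Fgfrl1 in non-mesenchymal cells, and the groups did not overlap for any of the 5 in either genotype, where 39.9% (controls) and 31.0% (mutants) of all genes did not. The summed level of Fgfr1 to Fgfr4 was 59.1 to 99.99 FPKM in control mesenchymal and 171 to 219 FPKM in control non-mesenchymal libraries. Fgfr1 made up 62.4 ± 9.41% (SD, n = 3) of it in control mesenchymal cells and 7.75 ± 1.78% in control non-mesenchymal cells. Fgfr2 made up 34.9 ± 9.55% and 78.3 ± 4.01%. The tables give 1 value per gene, so the splice forms of the receptors, which decide ligand specificity, were not analysed here.

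Fgfr2 (ENSMUSG00000030849, chr7:130162451-133123350), the receptor of Fgf7 and Fgf10, was at 142, 135 and 169 FPKM in control and 133, 148, 172 and 159 FPKM in mutant non-mesenchymal libraries of the H19DMD model. Mesenchymal libraries held 29.4, 15.4 and 45.1 FPKM in controls and 27.7, 20.3, 20.2 and 13.8 FPKM in mutants. The receptor gene was thus present in every mesenchymal library too, below every non-mesenchymal one. The non-mesenchymal mean was 4.95-fold the mesenchymal one in controls (log2 difference -2.38, SE 0.39, adjusted p = 0.00752) and 7.47-fold in mutants (-2.88, SE 0.21, adjusted p = 2.8e-05). In the Igf2 table Fgfr2 was at 150, 273, 149 and 175 FPKM in controls and 133, 90.9 and 149 FPKM in mutants. Fgfr2 shares 3.04% of its exonic bases with Ctbp2 on the same strand.

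Fgfr1, the receptor used by many mesenchymal cells, was at 55.6, 42.1 and 52.5 FPKM in control mesenchymal and 9.84, 16.5 and 18.2 FPKM in control non-mesenchymal libraries. In mutants it was at 48.7, 55.2, 35.5 and 76.8 FPKM and at 18.5, 21.1, 14.9 and 18.3 FPKM. It was 3.37-fold higher in mesenchymal cells in controls (log2 difference 1.72, SE 0.27, adjusted p = 0.00662) and 2.97-fold in mutants (1.48, SE 0.24, adjusted p = 0.00222). The non-mesenchymal libraries of the Igf2 table held 23.3 to 35.7 FPKM of Fgfr1 in controls and 15.8 to 45.6 FPKM in mutants, and levels were not tested across the tables, which the authors deposited separately.

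Fgfr3 was at 10.2, 19.6 and 21.1 FPKM in control and 19.1, 24.6, 18.3 and 26.6 FPKM in mutant non-mesenchymal libraries, against 2.47, 1.23 and 2.13 FPKM in control and 2.196, 1.46, 0.929 and 1.35 FPKM in mutant mesenchymal libraries. The difference was -2.57 (SE 0.34, adjusted p = 0.00356) in controls and -3.23 (SE 0.21, adjusted p = 1.7e-05) in mutants. Exons of Fgfr3 share 13.9% of their bases with the opposite-strand gene G630022F23Rik, and its level is uncertain to that extent. Fgfr4, a receptor of endodermal organs, was at 9.49, 8.90 and 10.7 FPKM in control and 9.81, 12.3, 10.8 and 15.2 FPKM in mutant non-mesenchymal libraries. Mesenchymal libraries held 0.131, 0.332 and 0.282 FPKM of Fgfr4 in controls and 0.728, 0.709, 1.09 and 0 FPKM in mutants. Fgfr4 had the largest difference among the receptors in controls, -3.10 (SE 0.21, adjusted p = 0.000357), and it was -3.03 (SE 0.27, adjusted p = 8.4e-05) in mutants.

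Fgfrl1, a receptor without a tyrosine kinase domain, had the smallest difference of the receptors in controls. It was at 7.35, 9.95 and 8.21 FPKM in control and 8.96, 9.76, 11.4 and 11.7 FPKM in mutant non-mesenchymal libraries. Mesenchymal libraries were at 3.08, 2.71 and 4.51 FPKM in controls and 1.82, 2.25, 0.763 and 7.65 FPKM in mutants, the last value standing closest to the non-mesenchymal range. The difference was -1.11 (SE 0.24, adjusted p = 0.0204) in controls and -1.73 (SE 0.44, adjusted p = 0.0205) in mutants. The control call was lost without mesenchymal library 1 or 2 or non-mesenchymal library 2 or 3 (adjusted p 0.0629 to 0.0751) and with 1 fit over the table (0.0804), and the mutant call without non-mesenchymal library 3 or 4 (adjusted p 0.0539 and 0.0555). A replicate block also ended the control call.

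**Figure D2:**
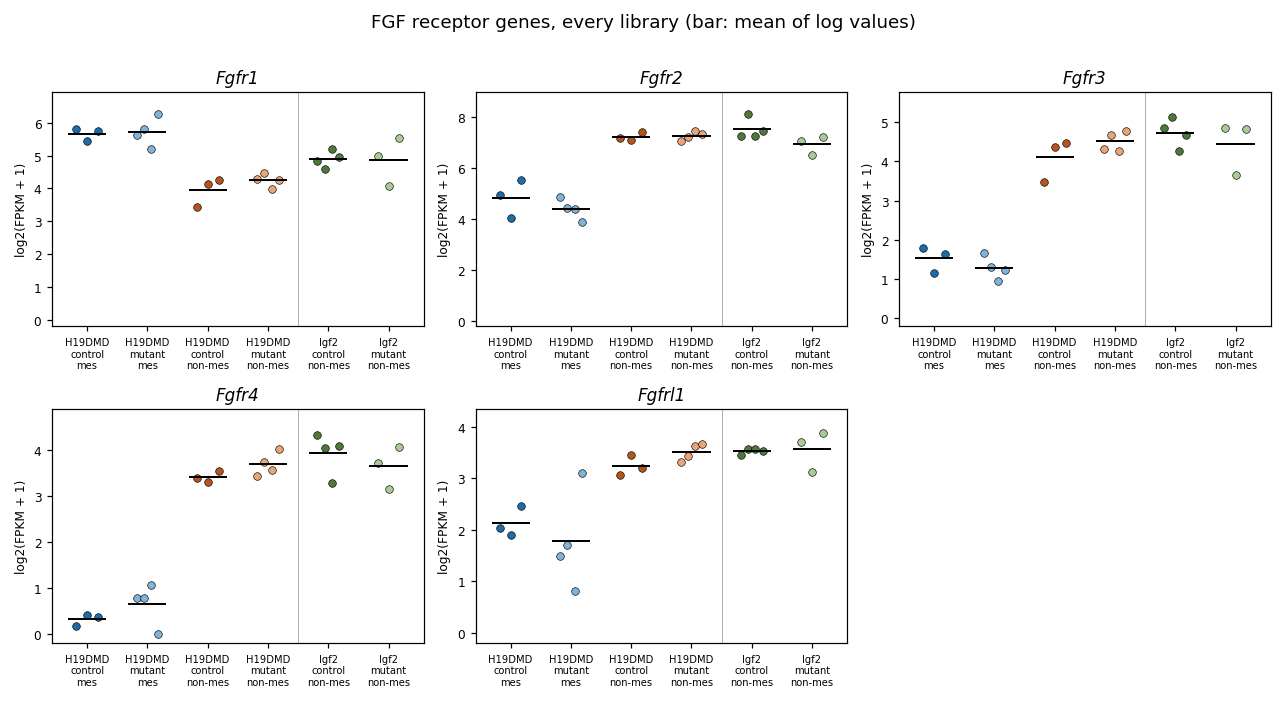
Levels of the 5 receptor genes as log2(FPKM + 1) on the vertical axis, with 1 point per library and a bar at the mean of each of the 6 groups (mes, mesenchymal; non-mes, non-mesenchymal). Fgfr1 is higher in the mesenchymal groups and Fgfr2, Fgfr3, Fgfr4 and Fgfrl1 in the non-mesenchymal groups of the H19DMD table.

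Of the 7 feedback genes, Spry4 stood apart from the others. Sprouty proteins are induced by receptor tyrosine kinase signalling and inhibit RAS and ERK activation. Spry4 was at 11.8, 24.4 and 21.1 FPKM in control and 27.1, 32.4, 20.9 and 34.2 FPKM in mutant mesenchymal libraries. Non-mesenchymal libraries were at 2.26, 2.15 and 1.81 FPKM in controls and 2.72, 2.899, 2.25 and 1.81 FPKM in mutants. Spry4 was 9.21-fold higher in mesenchymal cells of controls (log2 difference 2.65, SE 0.30, adjusted p = 0.00191) and 11.8-fold of mutants (3.10, SE 0.20, adjusted p = 1.6e-05).

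Spry2 was the most abundant Sprouty gene in both fractions. Its levels were 33.2, 53.8 and 42.2 FPKM in control mesenchymal and 22.5, 30.9 and 24.0 FPKM in control non-mesenchymal libraries. Mutant libraries held 48.1, 43.0, 62.3 and 27.3 FPKM in mesenchymal and 36.7, 22.9, 24.3 and 30.6 FPKM in non-mesenchymal cells. The control groups did not overlap, but the difference of 0.70 (SE 0.24) did not pass the test (adjusted p = 0.0889), nor did that in mutants (0.61, SE 0.27, adjusted p = 0.134). Without mutant mesenchymal library 4 the mutant difference was 0.82 (adjusted p = 0.0329).

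Spry1 was at 14.1, 19.6 and 27.9 FPKM in control mesenchymal and 8.70, 10.8 and 20.8 FPKM in control non-mesenchymal libraries, and the groups overlapped. Mutants were at 23.9, 25.5, 15.5 and 17.3 FPKM and at 14.3, 12.5, 14.7 and 17.4 FPKM. Its differences of 0.61 (SE 0.39, adjusted p = 0.333) and 0.44 (SE 0.20, adjusted p = 0.149) did not pass. A gene on the opposite strand, Gm42922, covers 24.4% of the exonic bases of Spry1. Spry3 was listed at 0 in all 21 libraries.

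Spred proteins bind RAS regulators at the membrane and inhibit RAF activation. Spred1 was at 17.2, 30.5 and 22.5 FPKM in control mesenchymal and 8.77, 13.2 and 12.04 FPKM in control non-mesenchymal libraries. Mutants were at 25.8, 25.4, 31.9 and 40.3 FPKM and at 12.6, 15.4, 15.96 and 13.01 FPKM. The groups did not overlap in either genotype. The difference passed in mutants (1.05, SE 0.19, adjusted p = 0.00363) and lay just outside the threshold in controls (0.96, SE 0.27, adjusted p = 0.0519), where it passed without mesenchymal library 1 (1.16, adjusted p = 0.0472), with a filter of 5 FPKM (0.0491) and with 1 fit over the table (0.00914). A replicate block also made it pass in controls. The difference between the 2 genotypes was itself small for Spred1 (0.08, SE 0.32, adjusted p = 0.982).

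Spred2 was at similar levels in both fractions, 18.0, 29.0 and 22.8 FPKM in control mesenchymal and 20.9, 16.5 and 28.6 FPKM in control non-mesenchymal libraries. Mutant mesenchymal libraries held 33.00, 18.8, 32.3 and 28.1 FPKM. Its difference was 0.09 (SE 0.28, adjusted p = 0.856) in controls and -0.13 (SE 0.22, adjusted p = 0.682) in mutants. Spred3 had group means between 2.96 and 4.16 FPKM, with differences of -0.02 (SE 0.32, adjusted p = 0.971) and -0.38 (SE 0.23, adjusted p = 0.270). Of the 6 tested feedback genes, 1 was thus higher in mesenchymal cells of controls and 2 in those of mutants, beside 12.4% and 13.5% of all genes, so that the counts of this small list are not set apart from the background.

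**Figure D3:**
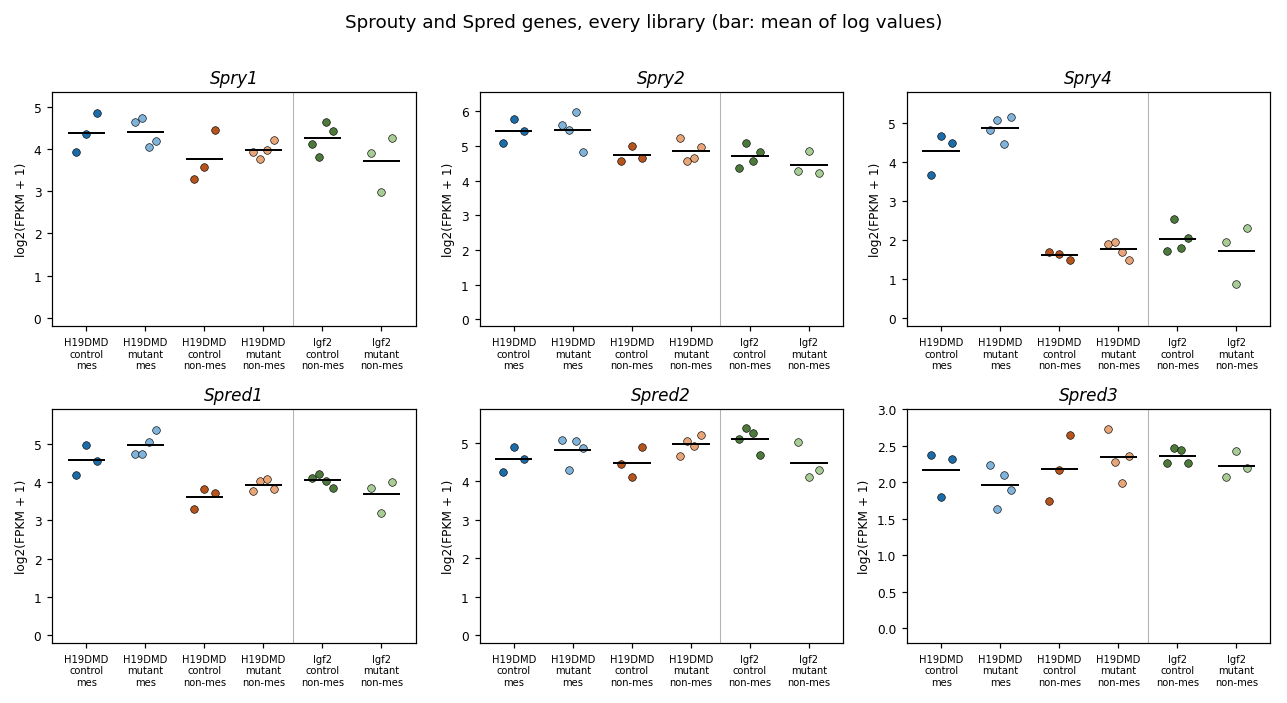
Levels of 3 Sprouty and 3 Spred genes as log2(FPKM + 1) on the vertical axis, with 1 point per library and a bar at the mean of each of the 6 groups (mes, mesenchymal; non-mes, non-mesenchymal). Spry4 is the gene whose mesenchymal groups lie farthest above the non-mesenchymal ones.

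Receptor levels in the same 7 libraries kept Fgfr2 in front. Fgfr1 was at 27.9, 23.3, 35.7 and 29.8 FPKM in controls and 30.5, 15.8 and 45.6 FPKM in mutants. Fgfr3 was at 27.9, 34.1, 18.3 and 24.5 FPKM in controls and 27.9, 11.5 and 27.3 FPKM in mutants. Levels of Fgfr4 were 18.98, 15.4, 8.70 and 16.1 FPKM in controls and 12.2, 7.85 and 15.9 FPKM in mutants. Fgfr2 exceeded each of them in every one of these libraries. The kinase-less Fgfrl1 held 9.97, 10.9, 10.9 and 10.6 FPKM in controls and 12.1, 7.71 and 13.7 FPKM in mutants. Among the feedback genes, Spry1 was at 16.3, 13.1, 23.8 and 20.4 FPKM in controls and 13.9, 6.94 and 17.99 FPKM in mutants. Levels of Spry2 were 19.8, 33.3, 22.8 and 27.4 FPKM in controls and 18.6, 27.8 and 17.8 FPKM in mutants. Controls and mutants overlapped for each of these genes other than Fgfr2. Spry4, the gene higher in mesenchyme, was at 2.29, 4.802, 2.46 and 3.12 FPKM in controls and 2.897, 0.835 and 3.95 FPKM in mutants. Spred1 held 16.1, 17.6, 15.4 and 13.4 FPKM in controls and 13.3, 8.21 and 15.1 FPKM in mutants. Spry4 stayed under 5 FPKM in all 7 libraries.

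**Figure D4:**
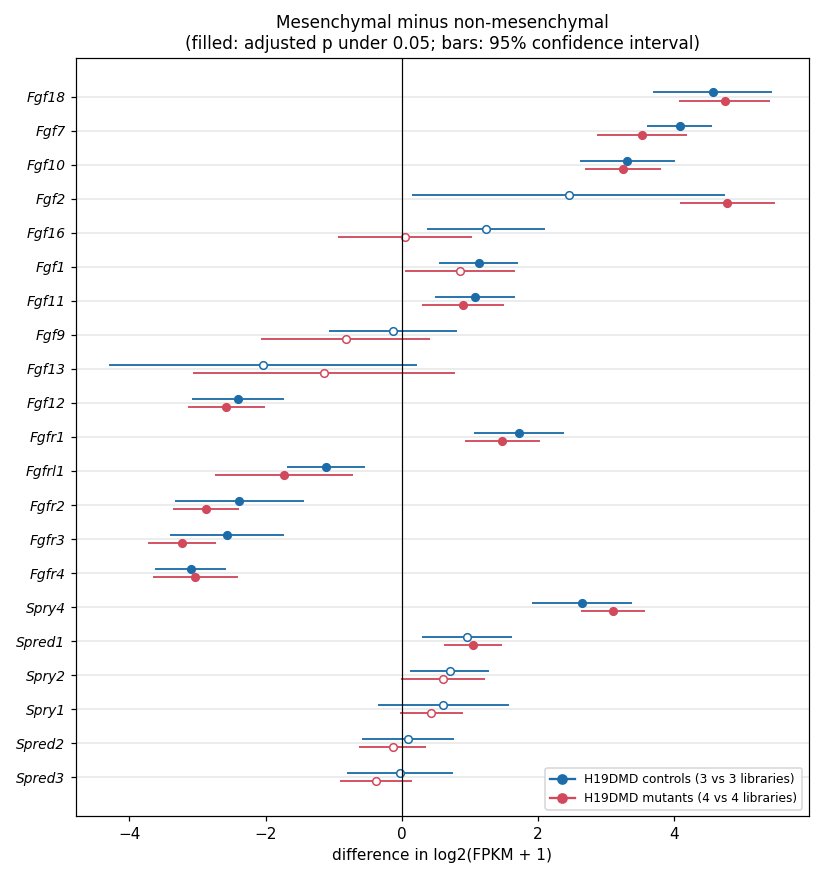
Mesenchymal minus non-mesenchymal difference in log2(FPKM + 1) on the horizontal axis for the 21 tested genes, with 95% confidence intervals, in controls (3 against 3 libraries) and mutants (4 against 4 libraries) of the H19DMD model; filled points have an adjusted p under 0.05. Fgf18, Fgf7 and Fgf10 lie on the mesenchymal side and Fgfr2, Fgfr3 and Fgfr4 on the non-mesenchymal side in both.

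Genes around the pathway were taken from lists of targets, partners, heparan sulphate genes and signal transducers. Of 10 FGF and ERK target and feedback genes, 1 was higher and 3 lower in mesenchymal cells of controls, with a median difference of -0.83 against 0.08 over all genes tested, and 1 was higher and 5 lower in mutants. Among all genes the shares higher and lower were 12.4% and 10.3% in controls and 13.5% and 15.1% in mutants. Il17rd, which encodes the FGF antagonist Sef, was higher in both, at 4.41, 5.06 and 4.53 FPKM in control mesenchymal and 1.01, 1.51 and 1.301 FPKM in control non-mesenchymal libraries (difference 1.32, SE 0.22, adjusted p = 0.00796). The ERK phosphatase gene Dusp5 was at 3.03, 3.001 and 4.54 FPKM in control mesenchymal and 13.1, 15.1 and 22.8 FPKM in control non-mesenchymal libraries (difference -1.98, SE 0.27, adjusted p = 0.00415). Ccnd1, the gene of cyclin D1, was at 17.4, 26.8 and 28.4 FPKM against 94.9, 128 and 128 FPKM in the same libraries (difference -2.24, SE 0.25, adjusted p = 0.00177). The list thus did not follow Spry4: of its members called in both genotypes, Il17rd was higher and Dusp5 and Ccnd1 lower in mesenchymal cells.

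Among 18 heparan sulphate genes, which encode the proteoglycans and enzymes that shape FGF binding, 8 were higher and 1 lower in mesenchymal cells of controls, and the counts were 8 and 1 in mutants, beside 12.4% higher and 10.3% lower of all genes in controls and 13.5% and 15.1% in mutants. The list's median difference was 0.74 in controls, where that of all genes was 0.08, and 9 of the 18 were not called. Sulf1, an enzyme that removes sulphate from heparan sulphate, was at 61.9, 37.5 and 36.2 FPKM in control mesenchymal and 2.26, 0.851 and 0.253 FPKM in control non-mesenchymal libraries (difference 4.51, SE 0.41, adjusted p = 0.000896). The glypican gene Gpc3 was at 175, 190 and 160 FPKM against 12.8, 15.4 and 13.7 FPKM (difference 3.56, SE 0.16, adjusted p = 0.000102). Gpc6 was at 33.4, 53.6 and 43.6 FPKM against 2.57, 3.81 and 2.78 FPKM (difference 3.44, SE 0.24, adjusted p = 0.000374). The list member lower in mesenchymal cells of both genotypes was the syndecan gene Sdc4, named here after its values were seen, at 22.3, 18.5 and 25.6 FPKM against 60.9, 92.6 and 77.9 FPKM in controls (difference -1.75, SE 0.22, adjusted p = 0.00302).

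Of 10 genes for coreceptors and extracellular partners, 6 were tested and 1 was called in each direction in both genotypes, beside 12.4% higher and 10.3% lower of all genes in controls and 13.5% and 15.1% in mutants. Klb, the coreceptor of endocrine FGFs, was at 2.35, 2.41 and 2.59 FPKM in control non-mesenchymal libraries and at most 0.305 FPKM in mesenchymal ones (difference -1.62, SE 0.28, adjusted p = 0.00950). Flrt2, a membrane protein known to bind FGF receptors, was at 60.2, 59.9 and 51.8 FPKM in control mesenchymal and 6.33, 7.81 and 9.71 FPKM in control non-mesenchymal libraries (difference 2.72, SE 0.20, adjusted p = 0.000435). Of 18 signal transducer genes, 16 were tested in controls and 1 was called: Gab1, a docking protein, was 35.1, 34.8 and 36.2 FPKM in mesenchymal and 15.7, 21.4 and 16.9 FPKM in non-mesenchymal cells (difference 0.95, SE 0.17, adjusted p = 0.0117). In mutants 3 of 17 tested transducer genes were called higher and 2 lower, beside 13.5% and 15.1% of all genes, and the 1 of 16 in controls stands beside 12.4%.

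The mutant comparison asks whether mesenchymal loss of H19DMD or of Igf2 changed these genes. In H19DMD mutant mesenchymal cells H19 fell from 2446 to 700 FPKM (log2 difference -1.82, adjusted p = 0.0458), and Igf2 was at 6162 to 7923 FPKM in mutants against 3648 to 4024 FPKM in controls. In non-mesenchymal cells of the Igf2 model, Igf2 was at 65.2, 25.0 and 147 FPKM in mutants and 71.5 to 144 FPKM in controls, a fraction in which the deletion was not targeted.

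No FGF, receptor or feedback gene passed the test in any of the 3 mutant comparisons (limma, adjusted p). In H19DMD mesenchymal cells 19 genes of the set were tested, 0 had an unadjusted p under 0.05 and 0 had groups that did not overlap. Over all 15856 genes, 0.0694% were called, 755 had an unadjusted p under 0.05, and 5.39% did not overlap between the groups. For the mesenchymal ligands the mutant minus control difference was -0.02 for Fgf18 (95% confidence interval -0.48 to 0.44), 0.00 for Fgf10 (-0.70 to 0.69) and -0.28 for Fgf7 (-0.94 to 0.37). Spry4 had the lowest p of the set. Its mutant values of 27.1, 32.4, 20.9 and 34.2 FPKM overlapped the controls at 11.8, 24.4 and 21.1 FPKM (difference 0.60, 95% confidence interval -0.10 to 1.29, adjusted p = 0.927, exact permutation p = 0.171, two-sided). Spred1 was next, with a difference of 0.40 (interval -0.21 to 1.00, adjusted p = 0.927). The summed pericyte and smooth muscle markers were 120 to 631 FPKM in these mutants and 432 to 716 FPKM in the controls. Ductal markers were lower without overlap (23.9 to 38.3 against 38.6 to 86.1 FPKM), mesothelial markers were at 83.4 to 131 against 120 to 264 FPKM, and leukocyte markers at 25.0 to 68.2 against 15.2 to 29.9 FPKM. The part of these marker lists in the values was not tested.

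In H19DMD non-mesenchymal cells 16 genes of the set were tested, 0 had an unadjusted p under 0.05 and 0 did not overlap, beside 0.0677% called, 868 genes with an unadjusted p under 0.05 and 5.68% without overlap among 16239 genes. All 5 receptor genes and all 6 tested feedback genes had a positive difference, none of them past the test, with medians of 0.27 and 0.18 against 0.05 over all genes. They were measured in the same libraries, so a shared sign is not a set of independent results. The share of all genes with a positive difference was not counted. The summed endocrine markers were 10449 to 19900 FPKM in these mutants and 19152 to 29087 FPKM in the controls, and the epithelial ones 515 to 926 and 373 to 586 FPKM, and their part in these values was not tested. Spred2 had the lowest p: mutants were at 24.4, 32.2, 29.1 and 36.1 FPKM and controls at 20.9, 16.5 and 28.6 FPKM (difference 0.47, 95% confidence interval -0.06 to 1.01, adjusted p = 0.894, exact permutation p = 0.114, two-sided). Spred1 followed at 0.32 (interval -0.13 to 0.76, adjusted p = 0.894).

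In Igf2 non-mesenchymal cells 16 genes of the set were tested and 0 had an unadjusted p under 0.05, beside 0.0631% called and 921 genes with an unadjusted p under 0.05 among 17441. All 6 tested feedback genes had a negative difference, with a median of -0.34 against -0.03 over all genes. Here too the shared sign is not a set of independent results. Spred2 was at 31.3, 16.3 and 18.6 FPKM in mutants and 33.5, 41.0, 37.4 and 24.7 FPKM in controls (difference -0.64, 95% confidence interval -1.29 to 0.01, adjusted p = 0.919, exact permutation p = 0.114, two-sided). Fgfr2 was the 1 gene of the 16 whose groups did not overlap, where 6.02% of all genes tested did not. Its mutants were at 133, 90.9 and 149 FPKM and its controls at 150, 273, 149 and 175 FPKM (difference -0.57, interval -1.22 to 0.08, adjusted p = 0.919, exact permutation p = 0.0571, two-sided). Library 3 of the mutants, at 148.6 FPKM, lay next to library 3 of the controls, at 149 FPKM. Mutant library 2 was the lowest of the 7 for Fgfr1, Fgfr2, Fgfr3, Fgfr4, Fgfrl1, Spry1, Spry4, Spred1 and Spred2 and the highest for Fgf9. In this comparison the summed acinar markers were 79913 to 91999 FPKM in mutants and 27447 to 39390 FPKM in controls. The 6 epithelial markers summed to 620 to 752 FPKM in mutants and 794 to 1016 FPKM in controls, lower without overlap, as for Fgfr2. The part of either marker list in the lower values was not tested. In the exact permutation test the smallest two-sided p for 3 against 4 libraries is 0.0571, the value of Fgfr2, whose groups did not overlap.

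**Figure D5:**
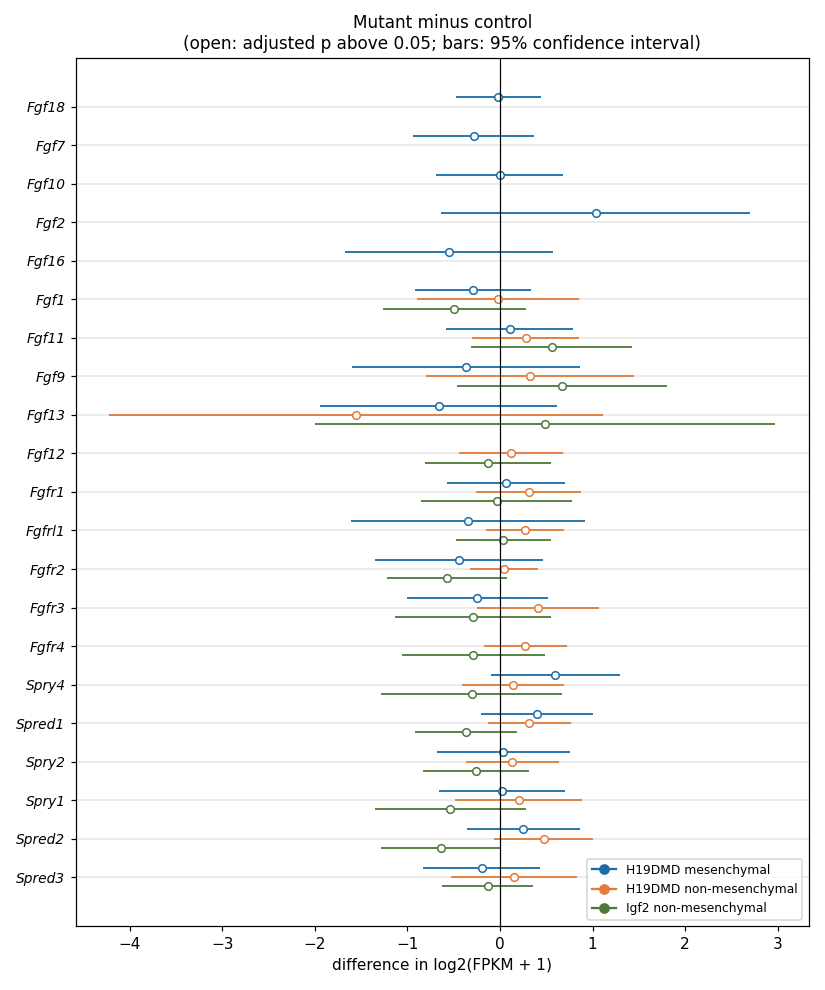
Mutant minus control difference in log2(FPKM + 1) on the horizontal axis for the tested genes of the set, with 95% confidence intervals, in H19DMD mesenchymal, H19DMD non-mesenchymal and Igf2 non-mesenchymal cells; all points are open because no adjusted p was under 0.05. The intervals of Fgf18, Fgf7 and Fgf10 in mesenchymal cells include 0.

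Whether the H19DMD deletion acted differently on the fractions was tested as an interaction over the 14 libraries of that model. None of the 21 tested genes of the set passed (limma, adjusted p), beside 0.0117% of 17105 genes, and 1 had an unadjusted p under 0.05, as did 1087 of all 17105 genes, so a single such gene among 21 is no more than the background share. That gene was Fgf2, with a difference of effects of 2.33 (SE 0.94, 95% confidence interval 0.30 to 4.37, adjusted p = 0.755). Without control mesenchymal library 3 it was 1.45 (adjusted p = 0.868), and with a pseudocount of 0.1 it was 4.38 (adjusted p = 0.785). It combines the low value of control mesenchymal library 3, at 2.99 FPKM, with the 4 mutant non-mesenchymal libraries, all listed at 0. Fgf16 followed, at -1.19 (SE 0.58, adjusted p = 0.807). For the receptors the differences of effects ranged from -0.66 for Fgfr3 to 0.07 for Fgfr4, with adjusted p from 0.857 to 0.988. The fraction contrasts and mutant effects of the H19DMD model share libraries, so their values are not independent of each other.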

How the data were processed

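Per the file headers, the authors deposited FPKM values, 1 table per model, with 38283 genes in each. The submitters' processing notes name TopHat2 2.0.8, Cufflinks 2.2.1 and GRCm38, without their roles; the annotation, the use of strand and the scaling between libraries are not given in the sources used here. Per the labels' protocols, 2 ng of RNA was amplified before single-end sequencing, so low values carry amplification noise.

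Values were tested as log2(FPKM + 1) with limma 3.58.1 in R 4.3.3 (empirical Bayes with a mean trend), on genes averaging 1 FPKM or more in the comparison and on the groups of each comparison only, with Benjamini-Hochberg adjustment at 0.05. The interaction used all 4 H19DMD groups. Exact two-sided permutation tests were run per gene (smallest p 0.1 for 3 against 3 libraries and 0.0286 for 4 against 4). For 4 against 3 the smallest p is the one given for Fgfr2 in the Igf2 model. Tests stayed within a table. Figures used Python 3.11.15 and matplotlib 3.10.9. Gene positions are from GENCODE M21 (GRCm38). The fits were tested on simulated data. Replicates correlated at 0.722 to 0.799 across genes, and at most 0.00518% of their values were identical, so none is a copy of another. Each was counted as 1 replicate, although the labels do not say that they came from separate animals. The numbers of genes listed above 0 FPKM were 17476 to 19352 (H19DMD) and 19199 to 20918 (Igf2) per library.

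Values in every library are given for genes of the set whose mean reached 5 FPKM in a group, group values from 1 to 5 FPKM, and counts below. The 2 lowest p-values of each mutant comparison and, per pathway list, up to 3 genes past the threshold in both fraction contrasts with the largest control difference are named. The members and lists were chosen with earlier results of these data known. Alternatives were median-ratio scaling, a pseudocount of 0.1, no filter, a filter of 5 FPKM, a replicate block, 1 fit over all libraries of a table, and leaving out each library.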

Additional observations from a re-analysis of the deposited data

Results flagged for a closer look

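Of 38 gene and group pairs with 4 libraries whose own mean reached 5 FPKM, 1 held a library far from its others. Fgf11, an intracellular FGF homologous factor, was at 3.76 FPKM in library 3 of the H19DMD mutant mesenchymal cells, and the other 3 libraries held 7.69 to 8.33 FPKM. The gap made up 0.894 of the range on the log2(FPKM + 1) scale, above Dixon's critical value for 4 samples. Chance flags about 1 in 20 such groups. No gene of the set passed the test of a difference in mutant effect between the fractions. A second look, chosen after seeing the data, took all 57 such pairs of the genes that reached 5 FPKM in any group. It gave 1 on the log2(FPKM + 1) scale, again Fgf11, and 3 on the FPKM scale: Fgf11 (0.86), Fgf10 in H19DMD mutant mesenchymal cells (0.847; 14.1 FPKM in library 3 and 7.45 to 8.46 FPKM in the others) and Fgf18 in Igf2 control non-mesenchymal cells (0.881; 2.698 FPKM in library 1 and 0 to 0.32 FPKM in the others).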

How the results depend on the processing

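The number of genes of the set called was 12 in the H19DMD control fraction contrast and stayed between 9 and 14 under every alternative run. In the mutant fraction contrast it was 13 and stayed between 10 and 13. It was 0 in the 3 mutant comparisons and the interaction under every alternative run. Median-ratio scaling moved the median of all genes from 0.08 to -0.03 in the control fraction contrast and from -0.11 to 0.00 in the interaction, and the split of called genes in controls from 2067 higher and 1718 lower to 1894 and 2035. Deviations of same-numbered libraries of compared groups correlated weakly (-0.0506 to 0.0674 over 16 pairs, mutant comparisons included). Between the fractions of the same genotype, all same-numbered correlations were positive (0.00738 to 0.0674). Differently numbered ones ran from -0.0514 to 0.0309. These values do not show whether the numbers pair the fractions. With a replicate block, 11 genes of the set were called in controls (Fgf1, Fgf11 and Fgfrl1 lost, Fgf13 and Spred1 gained) and 12 in mutants (Fgf11 lost), and 17 rather than 11 of all genes in the Igf2 comparison. Over all genes, a filter of 5 FPKM gave 2448 rather than 3785 calls in controls and 3148 rather than 4802 in mutants, with fewer genes tested. One fit over the table gave 5 (H19DMD mesenchymal) and 1 (non-mesenchymal) calls rather than 11. A pseudocount of 0.1 and no filter each gave 6 rather than 2 calls in the interaction. Leaving out 1 library gave 13 to 27 calls in H19DMD mesenchymal, 14 to 34 in H19DMD non-mesenchymal and 14 to 37 in Igf2 non-mesenchymal cells, and 2 to 9 in the interaction; the cause was not tested. Signs turned for 10 uncalled values. In controls, leaving out 1 library moved Fgf9 between -0.45 and 0.11 (positive without library 3 of either fraction), Spred2 between -0.090 and 0.29 (negative without library 2 of either fraction) and Spred3 between -0.25 and 0.21 (positive without mesenchymal library 2, 0.16, or non-mesenchymal library 3), and median-ratio scaling gave -0.033 for Spred2. In mutants it moved Fgf16 between -0.082 and 0.37 (negative without non-mesenchymal library 4) and Spred2 between -0.23 and 0.040 (positive without mesenchymal library 2), and a pseudocount of 0.1 gave -0.34 for Fgf16. FPKM without read totals allow no counting interval for genes near 0.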
